A study of Mus musculus with 4 samples.

Results

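The mitochondrial ribosomal protein genes were taken as every gene whose symbol is Mrpl or Mrps followed by digits, pseudogene symbols left out, with at least 100 unique molecular identifiers (UMIs) over 4 droplet libraries of mouse heart. All 78 such symbols passed, 49 Mrpl and 29 Mrps, among 14491 genes at that minimum and 32285 genes in all. The member with the fewest UMIs was Mrps22 with 2043, followed by Mrps2 with 2099 and Mrps11 with 2419. Mrpl42 had the most, 36402, and no matching symbol lay under the minimum. The rule uses symbols and total depth only, and the group was taken up with earlier results of these data known.

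The libraries came from the left ventricle of male wildtype C57BL/6J mice, with 1 library each for young sham and young I/R (3 to 5 months old) and 1 each for the aged sham and aged I/R groups (24 to 26 months old). I/R stands for 45 min of ischemia by surgery on the left anterior descending artery and 24 h of reperfusion. The labels call the sham hearts healthy where the methods describe sham operations, and they give nuclear RNA as the molecule where the methods describe single cells of the whole dissociated ventricle. How many mice went into each library is not stated, and with a single library for each condition no test between conditions was made.

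The mitochondrial ribosome translates the few proteins that mitochondrial DNA encodes, all of them subunits of the respiratory chain and ATP synthase. Its own proteins are encoded in the nucleus, made in the cytosol and imported, and they assemble with mitochondrially encoded rRNA into a large subunit, which forms peptide bonds, and a small subunit, which reads the mRNA. Some of the proteins descend from bacterial ribosomal proteins and others are found only in mitochondria. Defects in several of them, among them Mrpl3, Mrpl44 and Mrps22, are known to cause cardiomyopathy in people, and the heart depends on this machinery for its oxidative metabolism.

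A promoter window was on hand for 69 of the 78 genes in the RefSeq table (build GRCm38.p6), running from 250 bases before to 50 bases after the annotated start. The letters CCGGAAG, the core of an ETS factor site, stood on either strand in the windows of 26 of the 69 (37.7%), against 9.93% of 27025 genes with a window. The letters TGCGCA, found in sites of NRF1, a factor known for nuclear genes of mitochondria, stood in 21 (30.4%), against 8.79% of all genes. The YY1 letters ATGGCGG stood in 13 (18.8%), against 4.69%, and the SP1 letters GGGCGG in 34 (49.3%), against 38.2%. At least 1 of the first 3 motifs was present in 46 of the 69 (66.7%), against 20.2% of all genes. The 27025 genes were not limited by UMIs, while every member had at least 2043, so the sets differ in expression. A match describes the letters and is not a measured binding site. The 120 bases before the start are shown for 4 genes whose window lies outside the annotated gene, with any match to the 4 motifs in capitals. Among the members Mrpl52 had the highest level in young I/R relative to young sham and Mrpl34 one of the lowest, Mrps31 had none of the motifs, and Mrpl58, the rescue factor of stalled mitochondrial ribosomes, had 2.
Mrpl52 (chr14:54426789-54426908, plus strand): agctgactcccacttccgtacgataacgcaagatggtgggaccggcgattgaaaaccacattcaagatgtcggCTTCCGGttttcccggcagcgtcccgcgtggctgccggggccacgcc
Mrpl34 (chr8:71464806-71464925, plus strand): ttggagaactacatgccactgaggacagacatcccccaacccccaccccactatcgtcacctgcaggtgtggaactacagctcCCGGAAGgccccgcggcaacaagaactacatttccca
Mrpl58 (chr11:115403632-115403751, plus strand): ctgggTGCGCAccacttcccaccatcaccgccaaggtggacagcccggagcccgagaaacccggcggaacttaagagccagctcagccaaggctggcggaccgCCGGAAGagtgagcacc
Mrps31 (chr8:22411220-22411339, plus strand): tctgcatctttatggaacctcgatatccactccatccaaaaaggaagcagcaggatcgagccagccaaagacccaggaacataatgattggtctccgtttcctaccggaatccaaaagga
The ratios between libraries were set side by side for members that had at least 1 of the first 3 motifs and members that had none. For I/R over sham in the young hearts the median log2 ratio was -0.04 in the 46 with a motif and -0.03 in the 23 without, and in the aged hearts it was -0.05 and -0.18. The single motifs did not go the same way in the aged hearts. Members with and without the letters had -0.07 and -0.05 for ETS, -0.23 and -0.04 for NRF1, and 0.09 and -0.12 for YY1. These differences were not tested.

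The 4 libraries held 91124 to 102883 barcodes and 25836175 to 66767829 UMIs, with the lowest total in young sham and the highest in aged I/R. The 78 genes gave 111826 to 253778 UMIs per library, or 1.21 to 2.78 per barcode, so they are described over summed barcodes and not per cell. Values are CPM, UMIs scaled to a library total of 1000000, and every run of 4 values gives the young hearts first and then the aged, each with sham before I/R. Intervals at 95% are exact and cover counting error only, not differences between mice or preparations. Each library shared 7.44 to 7.92% of its barcode sequences with another. Markers of cardiomyocytes took 10.00 to 12.1% of the UMIs, all 18 of them above 0 in every library. Markers of endothelial cells (1954 to 2306 CPM), fibroblasts (1244 to 2172 CPM) and macrophages (400 to 719 CPM) were present as well, all 19, 18 and 21 of them above 0 in every library. Neutrophil markers summed to 14.8, 109, 24.98 and 105 CPM, higher in both I/R libraries, with 1 of the 8 at 0 in young sham. Erythroid markers summed to 2567, 1957, 1691 and 1025 CPM and atrial markers to 453, 1285, 926 and 457 CPM, and the part of these cells in the results was not tested. In such sums fewer cells of a type and less RNA per cell cannot be told apart.

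Summed over the 78 genes, the level was 4328 CPM in young sham (95% interval 4303 to 4354), 4218 in young I/R (4198 to 4238), 4287 in aged sham (4267 to 4307) and 3801 in aged I/R (3786 to 3816). On this scale of total UMIs young sham, young I/R and aged sham thus lay close together and aged I/R below them. The closeness changed with scaling and barcodes. For young I/R over young sham the log2 ratio of the sum was 0.45 with libraries scaled by the median of gene-wise ratios. It was -0.37 in barcodes with 2 to 5% of their UMIs from Malat1. The 51 genes of the large subunit, among which Mrps30 and Mrps18a are counted by where their proteins sit, summed to 2991, 2953, 3022 and 2668 CPM. The 26 genes of the small subunit summed to 1262, 1191, 1196 and 1075 CPM. Both subunits were lowest in aged I/R. Mrps36, whose product is now known as a subunit of the 2-oxoglutarate dehydrogenase complex and not of the ribosome, had 74.9, 73.6, 70.2 and 57.4 CPM, with the same library lowest.

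Scaled to total UMIs, the level of most members varied little between the libraries. The highest of the 4 CPM values was a median of 1.29 times the lowest, against 1.75 over all genes. For 71 of the 78 (91.0%) it was less than 1.5 times the lowest, against 31.4% of all genes and 42.7% of the 7643 genes with at least 2043 UMIs, the depth of the shallowest member. This depended on scaling and barcodes. With libraries scaled by the median of gene-wise ratios 31 members (39.7%) stayed under 1.5 times, against 37.4% of all genes, and in barcodes with 2 to 5% of their UMIs from Malat1, a range described further on, 47 (60.3%) did, against 36.3%. Totals without the most abundant genes gave 63 members (80.8%), against 35.3% of all genes. Barcodes with at least 200 detected genes gave 69 (88.5%), against 28.6%. On the scale of total UMIs the most level member was Mrpl51, a large subunit protein specific to mitochondria, with 172, 166, 173 and 169 CPM. Mrpl41 and Mrpl58 followed closely, with 47.1, 46.3, 45.7 and 44.3 CPM and 36.4, 37.8, 38.8 and 37.5 CPM. The 7 members that reached 1.5 times were Mrps5, Mrpl34, Mrps21, Mrps31, Mrpl3, Mrpl28 and Mrpl53, with Mrps5 the widest at 2.59 times. The order of the 78 levels was much the same in all libraries, with a Spearman correlation of 0.94 to 0.97 across the 78 genes for the 6 pairs of libraries, which share gene length and base composition and are not independent replicates.

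**Figure D1:**
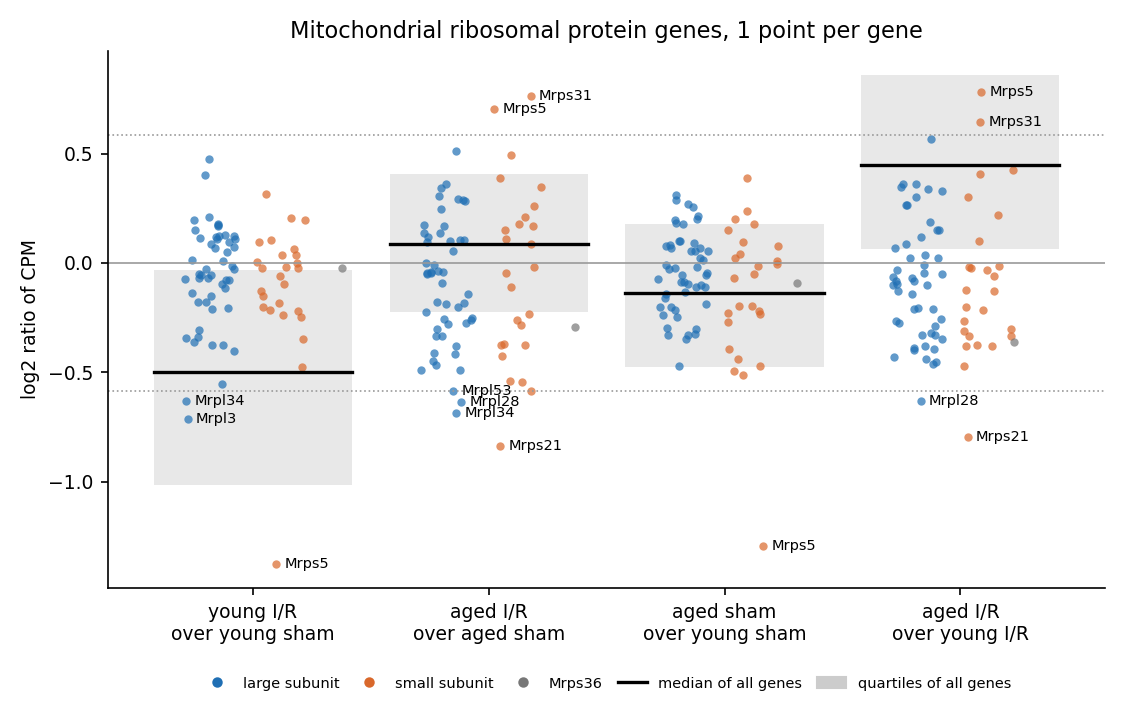
Log2 ratio of CPM (vertical axis) of the 78 genes in the 4 comparisons, 1 point per gene, with large subunit, small subunit and Mrps36 in separate colours, the median (black line) and quartiles (grey box) of all 14491 genes, and dotted lines at 1.5-fold. With this scaling to total UMIs the points lie around 0 in every comparison while the median of all genes moves from -0.50 to 0.45, and Mrps5 stands lowest where a library is set against young sham and near the top in both comparisons of aged I/R.

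Divided by annotated exon length, the mean over the 4 libraries was highest for Mrps21 (125 CPM per kb), Mrpl28 (122) and Mrpl12 (110.1). It was lowest for Mrps10 (2.75), Mrps22 (2.87) and Mrps30 (3.75). The method counts transcripts at their 3′ ends, and the exon length joins the exons of all annotated transcripts of a gene. This scale thus gives low values to genes with much annotated exon (Mrps30 has 6666 bp and Mrps21 has 739). The order is not one of transcript number. Mrpl42, the member with the most UMIs, had 235, 222, 221 and 185 CPM, lowest in aged I/R like the sum. Mrpl12, the protein of the stalk through which translation factors reach the ribosome, had 164, 187, 188 and 136 CPM, and was higher in young I/R and aged sham than in the other libraries. Mrpl30, of the large subunit, had the same order, from 169 CPM in aged sham to 139.8 in aged I/R.

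Young I/R was compared with young sham to ask what ischemia and reperfusion did in the young heart. The summed level had a log2 ratio of -0.04 (95% interval -0.05 to -0.03), and the median over the 78 genes was -0.04 against -0.50 over all genes. Relative to that shift of all genes the members lay 0.46 higher, and 74 of the 78 were above the median of all genes. When the libraries were scaled by gene-wise ratios in place of totals, which adds 0.49 to the median of all genes, the sum turned from slightly lower to higher in young I/R, at 0.45. With it 19 members were at least 1.5-fold higher (24.4%, against 18.8% of all genes) and 1 was lower (against 23.0%). Among genes at the depth of the members these gene-wise shares were 22.6% and 13.3%, so the share of higher members was close to that of such genes. On the scale of total UMIs no member was at least 1.5-fold higher, against 5.76% of all genes, and 3 were at least 1.5-fold lower, against 45.2% of all genes. At the depth of the members these shares of all genes were 5.00% and 34.8%.

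The 3 lower members were Mrps5, Mrpl3 and Mrpl34. Mrpl3, a bacterial-type protein near the site of peptide bond formation, had 80.8, 49.2, 58.3 and 54.7 CPM, and its log2 ratio was -0.72 (-0.81 to -0.63). Mrpl34 had 61.9, 40.0, 53.3 and 33.1 CPM, and its ratio was -0.63 (-0.73 to -0.53). Both were highest in young sham, and neither stayed past 1.5-fold under gene-wise scaling, at -0.23 and -0.14. Next came Mrpl39, of the large subunit, at -0.56 (-0.73 to -0.38). At the other end was Mrpl52, with 63.9, 89.0, 77.1 and 69.9 CPM and a log2 ratio of 0.48 (0.39 to 0.56). Mrpl20 followed at 0.40 (0.29 to 0.51), Mrps34, which stabilizes the small subunit, at 0.31 (0.22 to 0.40) and Mrpl2 at 0.21 (0.11 to 0.31). These 4 were below 1.5-fold with total UMIs and past it with gene-wise scaling, and Mrps34 shares exon sequence with Nme3 on the same strand, so its count is uncertain.

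Aged I/R over aged sham asked the same of the aged heart and rests on the other libraries. The summed level had a log2 ratio of -0.17 (-0.18 to -0.16), and the median over the 78 genes was -0.05 against 0.09 over all genes, or -0.14 relative to them. The sum lay below the median. Among the 6 members with the highest mean CPM, Mrpl12 stood at -0.47 (-0.51 to -0.42) and Mrpl42 at -0.26 (-0.30 to -0.22), while the interval of Mrpl51, at -0.04, reached 0. At least 1.5-fold higher were 2 members, Mrps31 and Mrps5, or 2.56% against 15.0% of all genes, and 12.9% at the depth of the members. At least 1.5-fold lower were 4, Mrps21, Mrpl34, Mrpl28 and Mrpl53, or 5.13% against 7.97% of all genes and 5.76% at that depth. With gene-wise scaling 9 were lower (11.5%, against 11.3% of all genes).

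Of the lower members, Mrps21, a small subunit protein of bacterial type, had 101, 103, 106 and 59.5 CPM. Its first 3 values lay close together and aged I/R stood apart, with a log2 ratio of -0.84 (-0.90 to -0.77). Mrpl28, of the large subunit, had 168, 190, 190 and 123 CPM and a ratio of -0.64 (-0.68 to -0.59). Mrpl34 was the only member at least 1.5-fold lower in I/R at both ages, here at -0.69 (-0.77 to -0.60). Mrpl53 was just past the limit at -0.59 (-0.67 to -0.50) and lay between -0.46 and -0.69 over the alternatives in processing. Of the higher members, Mrps31, a small subunit protein specific to mitochondria, had 25.04, 19.7, 18.1 and 30.7 CPM and a ratio of 0.77 (0.64 to 0.89). Mrpl9 at 0.51 (0.41 to 0.62) and Mrps22 at 0.49 (0.32 to 0.66) came next, both below 1.5-fold.

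**Figure D2:**
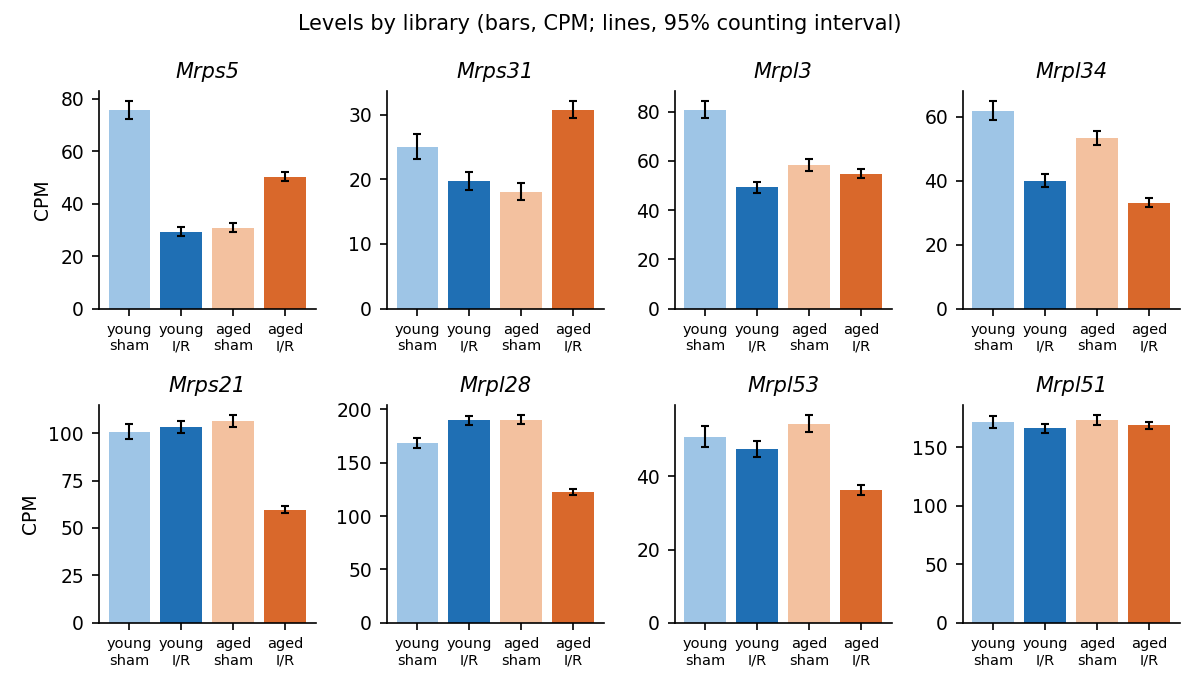
CPM (vertical axis, from 0) of the 7 members that varied at least 1.5-fold between libraries and of Mrpl51, the most level member, in the 4 libraries, with 95% counting intervals as lines. Mrps5 falls into high, low, low and intermediate bars (75.7, 29.2, 30.8 and 50.1 CPM), Mrps21, Mrpl28 and Mrpl53 are lowest in aged I/R, and Mrpl51 is flat.

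Aged sham was compared with young sham for the effect of age without injury, and it shares the young sham library with the first comparison and the aged sham library with the second. The summed level had a log2 ratio of -0.01 (-0.02 to -0.00), and the median over the members was -0.05 against -0.14 over all genes. The sign of the sum was not stable, at 0.13 with gene-wise scaling, 0.062 with totals without the most abundant genes, 0.032 in barcodes with at least 200 detected genes and -0.35 in those with 2 to 5% Malat1. No member was at least 1.5-fold higher, against 7.81% of all genes, and only Mrps5 was at least 1.5-fold lower, against 18.3%. At the depth of the members these shares of all genes were 4.27% and 14.2%. The highest ratios were those of Mrps14 at 0.39 (0.28 to 0.49), Mrpl20 at 0.31 (0.20 to 0.42) and Mrpl33 at 0.29 (0.22 to 0.35). After Mrps5 the lowest were Mrps28 at -0.51 (-0.69 to -0.33), Mrps18b at -0.49 (-0.61 to -0.38) and Mrpl3 at -0.47 (-0.56 to -0.39). Mrps28, a small subunit protein, had 17.8, 17.8, 12.5 and 16.3 CPM, and Mrps18b had 43.5, 43.5, 30.95 and 33.4 CPM, so the low value of Mrps28 was in aged sham while Mrps18b was lower in both aged libraries.

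Aged I/R over young I/R, the comparison of injured hearts across age, uses libraries that also enter the comparisons with sham. The sum had a log2 ratio of -0.15 (-0.16 to -0.14), and the median over the members was -0.10 against 0.45 over all genes, or -0.54 relative to them. Only 3 of the 78 lay above the median of all genes. At least 1.5-fold higher were 2 members, Mrps5 and Mrps31, against 40.9% of all genes and 30.9% at the depth of the members. At least 1.5-fold lower were 2, Mrps21 at -0.79 (-0.86 to -0.73) and Mrpl28 at -0.63 (-0.68 to -0.59), against 3.38% of all genes and 3.39% at that depth. Mrps31 stood at 0.64 (0.52 to 0.76), and Mrpl39 and Mrps10 followed at 0.57 (0.43 to 0.71) and 0.43 (0.30 to 0.55). Mrps12, which lines the decoding centre, had 47.1, 53.9, 50.4 and 38.9 CPM and a ratio of -0.47 (-0.56 to -0.39), and Mrpl12 had -0.46 (-0.51 to -0.42). Gene-wise scaling takes 0.44 off this comparison. With it neither Mrps5, at 0.34, nor Mrps31, at 0.20, was past 1.5-fold and no member was higher (against 17.6% of all genes), while 34 members (43.6%) were at least 1.5-fold lower, against 14.5% of all genes. At the depth of the members these gene-wise shares of all genes were 8.66% higher and 17.6% lower.

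By library, 28 members (35.9%) had their highest CPM in young sham, against 41.2% of all genes. In young I/R it was 16 (20.5%), against 9.72%, in aged sham 20 (25.6%), against 22.2%, and in aged I/R 14 (17.9%), against 26.8%. At the depth of the members the shares of all genes were 38.3%, 11.9%, 21.1% and 28.7%. The order depends on scaling, since with gene-wise ratios 72 members were highest in young I/R. That scaling adds 0.49 to all genes in young I/R over young sham. The share of all genes highest in young I/R under it is not given here, so the 72 are not set against all genes. Set side by side at the 2 ages, 22 members were lower in young I/R and higher in aged I/R than in their sham (28.2%, against 46.1% of all genes), and 23 showed the opposite (29.5%, against 11.8%). A further 25 were lower in I/R at both ages (32.1%, against 30.5%) and 8 higher at both (10.3%, against 11.5%). With gene-wise scaling the second pattern took 50 members (64.1%, against 28.3% of all genes) and the first only 2 (2.56%, against 27.7%).

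Mrps5 was the member with the largest differences. It encodes a small subunit protein of bacterial type at the channel through which mRNA enters, and lower levels of it have been linked to longer life in mice. The gene (ENSMUSG00000027374) lies at chr2:127587222-127606829 on the plus strand in GRCm38, spans 19608 bp and shares no exon sequence with another annotated gene. Its level was 75.7 CPM in young sham (72.3 to 79.1), 29.2 in young I/R (27.5 to 30.9), 30.8 in aged sham (29.2 to 32.6) and 50.1 in aged I/R (48.5 to 51.9), from 1955, 1157, 1275 and 3348 UMIs. The intervals of young I/R and aged sham overlapped, young sham was highest and aged I/R lay between.

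The log2 ratio of Mrps5 in I/R over sham was -1.38 (-1.48 to -1.27) in the young hearts and 0.70 (0.61 to 0.80) in the aged hearts, and the aged ratio exceeded the young by 2.08 (1.94 to 2.22, counting error only). Aged sham over young sham was -1.30 (-1.40 to -1.19) and aged over young I/R 0.78 (0.69 to 0.88). Gene-wise scaling, which moves these injury comparisons by 0.49 and -0.10, could not reverse the directions within each age and gave -0.89 and 0.60. The directions held in barcodes with at least 200 detected genes, at -1.69 and 0.67. No other member was past 1.5-fold in opposite directions at the 2 ages. The share of all genes past it in opposite directions is not given here. The nearest member was Mrps31, at -0.35 (-0.50 to -0.19) and 0.77 (0.64 to 0.89), which gives a difference of 1.11 (0.92 to 1.31). Mrpl39 followed with a difference of 0.92 (0.70 to 1.13) and Mrps10 with 0.82 (0.63 to 1.02). At the other end were Mrps21 at -0.87 (-0.97 to -0.78) and Mrpl28 at -0.81 (-0.88 to -0.74). The start of Mrps5 lies 128 bp from that of Zfp661 on the opposite strand, a zinc finger gene with 2.44, 1.39, 1.74 and 1.83 CPM from 312 UMIs in all.

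The share of cardiomyocyte markers in a barcode's UMIs gave a further division, which is a range and not a cell type. Of barcodes with at least 200 detected genes, 99.4%, 99.93%, 99.95% and 99.97% had a share of 5 to 20%. The ranges thus do not separate cell types, and whether a barcode holds 1 cell was not tested. Among barcodes with at least 200 detected genes, over UMIs without these markers, the 78 genes summed to 4292, 4579, 4591 and 4189 CPM where the share was 5 to 10%. They summed to 4846, 4862, 4830 and 4343 CPM where it was 10 to 20%. The level was higher in the upper of these 2 ranges in every library, and aged I/R had the lowest value in both. In the lower range its interval (4138 to 4241 CPM) overlapped that of young sham (4217 to 4367 CPM), and in the upper range it lay below the intervals of the other libraries. Aged I/R had 10035 barcodes in the lower range and 79929 in the upper, and young I/R 28354 and 28444. Young sham had 7725 and 18257, and aged sham 26551 and 41537. The minimum of 200 genes kept 26140 of 92200 barcodes in young sham and 56835 of 102883 in young I/R. It kept 68121 of 100342 in aged sham and 89990 of 91124 in aged I/R. Median UMIs per barcode were 244, 374, 391 and 675, so these ranges and those of Malat1 below compare unequal parts of the libraries. No barcode with at least 200 detected genes had a share under 2% in any library. At 20% or more there were 21 in young sham, 5 in aged sham, 21 in aged I/R and none in young I/R. Their levels were 3167 CPM (2049 to 4674), 4444 CPM (2219 to 7952) and 3332 CPM (2593 to 4217). These lay below the levels of the 10 to 20% range, but the interval of aged sham, from 11 UMIs, took that level in. At 2 to 5% there were 137, 37, 28 and 5 barcodes, with 3722, 3681, 4017 and 2663 CPM.

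Malat1, a long noncoding RNA that stays in the nucleus, took 7.34%, 2.22%, 2.88% and 4.33% of the UMIs, the same order of libraries as for Mrps5. Among barcodes with at least 200 detected genes, those with 5% or more Malat1 had a lower summed level of the 78 genes than those under 5% in every library. The log2 ratios, over UMIs without Malat1, were -0.40 (-0.43 to -0.38), -0.24 (-0.28 to -0.20), -0.19 (-0.21 to -0.16) and -0.22 (-0.23 to -0.21). The median over all genes in the same split was above 0 in every library, at 0.25, 0.16, 0.15 and 0.05. In all 4 libraries 56 of the 78 members were lower in the barcodes rich in Malat1, and the medians of cytosolic ribosomal proteins (-0.65, -0.38, -0.32 and -0.32) lay lower still. Mrps5 went the other way from most members, in the direction of the median of all genes. It was higher in the barcodes rich in Malat1 in every library, by 1.17 (0.92 to 1.43), 0.72 (0.36 to 1.06), 0.84 (0.62 to 1.06) and 0.39 (0.29 to 0.50) on the log2 scale. Mrpl3 was also higher in every library, by 0.75, 0.51, 0.29 and 0.05, with its interval above 0 in 3 of them. Mrps5 was the only member whose interval lay above 0 in all 4. The shares of all genes lower in all 4, or with an interval above 0 in all 4, are not given here.

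Within a narrow range of Malat1, 2 to 5% of a barcode's UMIs, the picture of the group differed from that of whole libraries. The summed level there, over UMIs without Malat1, was 5532, 4253, 4304 and 4087 CPM, with young sham above the others. The median log2 ratio of the members in young I/R over young sham was -0.38, against -0.35 over all genes in the same barcodes, so they were no longer above the rest. In aged sham over young sham it was -0.37 against -0.08. In the other comparisons the members' medians were 0.03 and -0.02, against 0.06 and 0.36. At least 1.5-fold lower were 13 members in young I/R over young sham and 15 in aged sham over young sham, where whole libraries gave 3 and 1. These were 16.7% and 19.2% of the members, against 33.0% and 9.61% of all genes in the same barcodes. Mrps5 had 57.2, 31.6, 31.5 and 49.1 CPM in this range, with young sham and aged I/R above young I/R and aged sham. The intervals of young sham (48.0 to 67.6 CPM, from 137 UMIs) and aged I/R (47.0 to 51.3 CPM) overlapped here, unlike in whole libraries. Those of young I/R and aged sham overlapped as well. The log2 ratios of Mrps5, taken like the medians over all UMIs of these barcodes, were -0.84 and 0.63 for I/R over sham in young and aged hearts. This range was chosen after the data had been seen, it holds 6391, 21882, 33972 and 65044 barcodes, and what the share of Malat1 stands for in these libraries was not tested.

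**Figure D3:**
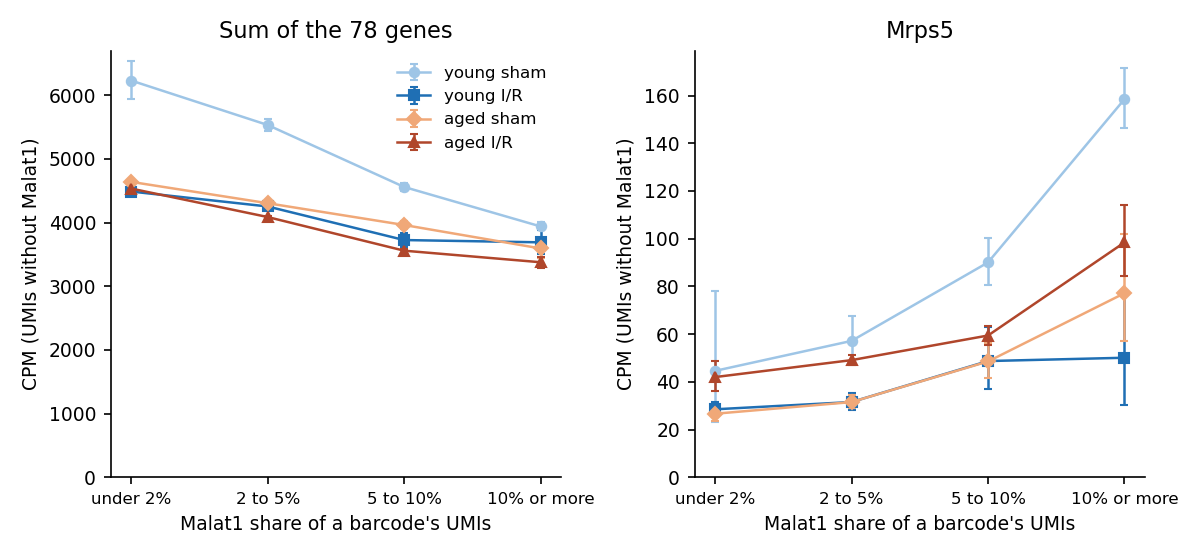
Summed CPM of the 78 genes (left) and CPM of Mrps5 (right), over UMIs without Malat1, in barcodes with at least 200 detected genes grouped by the share of Malat1 in their UMIs (horizontal axis), 1 line per library with 95% counting intervals. The sum is lower with more Malat1 in the 4 libraries, from 6230 to 3939 CPM in young sham, while Mrps5 is higher, from 44.6 to 158 CPM.

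Grouped by the origin of the proteins, the classes had medians close to that of all members in the young hearts. For I/R over sham the median log2 ratio was -0.06 for the 30 large subunit genes with bacterial relatives, -0.01 for the 21 large subunit genes specific to mitochondria, -0.02 for the 16 small subunit genes with bacterial relatives and -0.08 for the 10 specific to mitochondria. In aged I/R over aged sham these medians were -0.05, -0.14, -0.17 and 0.14. The last class held Mrps31 and Mrps22, with 7 of its 10 genes above 0. Over all genes 8356 of 14491 were above 0, with a median of 0.09. The sum of the class was lower in aged I/R, at -0.09 (-0.12 to -0.07), and its members Mrps23 and Mrps33 were lower there. Mrps23 had 112, 115, 132 and 91.0 CPM and Mrps33 had 70.7, 67.9, 71.1 and 54.8 CPM. Mrpl45, which holds the exit of the ribosome at the inner membrane, had 64.6, 58.7, 60.2 and 60.1 CPM, and Mrpl44, an RNase III relative, had 25.9, 27.2, 27.1 and 19.9 CPM.

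Other genes of the pathway were taken from lists written by hand. The 5 mitochondrial ribosomal proteins without an Mrp symbol had a median log2 ratio of 0.15 in young I/R over young sham and none past 1.5-fold. Among them Chchd1 had 66.3, 80.3, 93.2 and 56.8 CPM and was at least 1.5-fold lower in aged I/R over aged sham, at -0.71, as were 7.97% of all genes. For the lists that follow, 45.2% of all genes were at least 1.5-fold lower in young I/R over young sham and 5.76% higher. The 12 translation factors had a median of -0.40 in young I/R over young sham, with 4 at least 1.5-fold lower, among them the initiation factor Mtif2 with 61.5, 31.2, 36.8 and 49.4 CPM. The elongation factor Tufm was an exception in the list, with 113, 136, 121 and 79.9 CPM. The 22 assembly factors had a median of -0.48, with 9 at least 1.5-fold lower and none higher. Among these the methyltransferase-like gene Mettl17 had 17.5, 7.66, 11.8 and 12.1 CPM. The median was -0.35 for the 20 genes of aminoacyl-tRNA synthesis, with 4 at least 1.5-fold lower and 1 higher, and -0.39 for the 13 genes of mitochondrial DNA upkeep and transcription, with 5 lower and none higher. The 1 higher was Lars2, the leucyl-tRNA synthetase, whose 3049, 5064, 3541 and 5845 CPM made up most of the sum of its list. Translation factors, assembly factors, aminoacyl-tRNA synthesis, mitochondrial DNA upkeep and all genes had medians from -0.50 to -0.35 in the young comparison with total UMIs. The members lay near 0 there. In barcodes with 2 to 5% Malat1 the members' median was -0.38, against -0.35 over all genes.

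**Figure D4:**
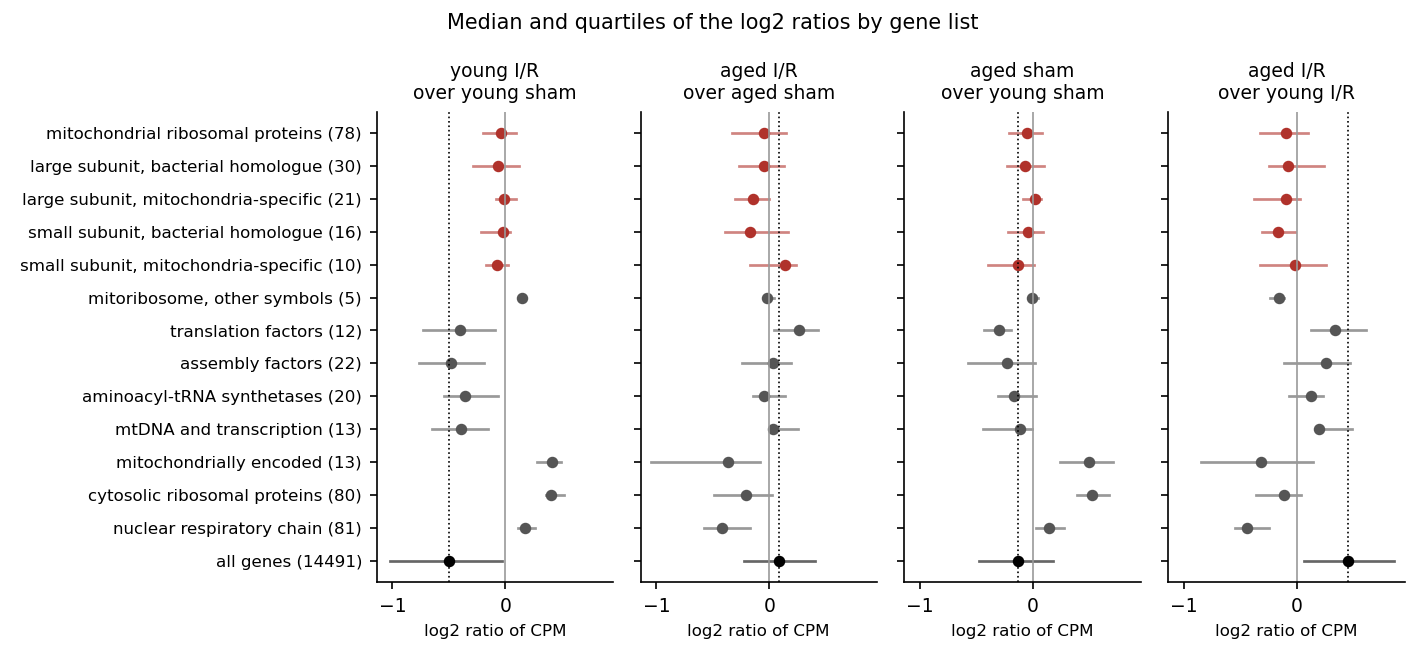
Median (point) and quartiles (line) of the log2 ratios of CPM for the mitochondrial ribosomal protein genes and their 4 classes (red), other gene lists (grey) and all genes (black), with the number of genes in brackets, in the 4 comparisons. In young I/R over young sham the members lie at -0.04 between the factor lists, near the median of all genes at -0.50 (dotted line), and the cytosolic ribosomal proteins at 0.41.

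The 13 mitochondrially encoded mRNAs, the templates of this ribosome, were 99990, 140511, 155637 and 99835 CPM in sum, higher in young I/R and aged sham, and mt-Co1 alone had 23095, 38451, 41377 and 23827 CPM. Their median log2 ratio was 0.41 in young I/R over young sham and -0.37 in aged I/R over aged sham, a wider swing than the members' -0.04 and -0.05. The 81 nuclear genes of the respiratory chain had medians of 0.18 and -0.41, and the 80 cytosolic ribosomal protein genes 0.41 and -0.21. At least 1.5-fold lower in aged I/R over aged sham were 20 of the 81 and 16 of the 80, against 4 of the 78 members and 7.97% of all genes. In aged sham over young sham 30 of the 80 cytosolic genes were at least 1.5-fold higher, and none of the 78, against 7.81% of all genes.

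The genes lie on 17 chromosomes and span 789 bp (Mrpl34) to 121773 bp (Mrps28), with a median of 7900 bp. The 25 members of 10 kb or more had a median log2 ratio of -0.08 in young I/R over young sham and 0.05 in aged I/R over aged sham, and the 53 shorter ones -0.01 and -0.18. Over all genes these medians were -0.55 and 0.12 for the longer and -0.32 and -0.05 for the shorter. The summed level of the longer members was 1451, 1306, 1344 and 1285 CPM and that of the shorter ones 2877, 2911, 2944 and 2516 CPM, so the lower sum in aged I/R lay mostly in the short genes. Across the 78 genes the Spearman correlation of span with the ratio was -0.20 in the young and 0.33 in the aged comparison, against -0.16 and 0.19 over 14481 genes, which is a description over genes of the same libraries. Within 1 kb upstream of the start of 18 members (23.1%) another protein-coding gene starts on the opposite strand, against 6.71% of 21625 protein-coding genes. Opposite-strand starts that lie downstream of a start, inside the gene, were not counted in either share. For 29 members an exon overlaps an exon of another gene, for Mrps24, Mrps34 and Mrps6 on the same strand, and whether counting used strand is not stated, so these counts are uncertain. Among the members past 1.5-fold, Mrpl3 and Mrpl53 overlapped exons of antisense genes by 24 and 15 bp and the others overlapped none. The sum of the 49 members without such overlap was 3098, 3069, 3122 and 2697 CPM, again lowest in aged I/R.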

How the data were processed

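Each of the 4 samples was deposited by the authors as a matrix of UMI counts per gene and barcode with no scaling, made with Cell Ranger 6.0.2 on mm10 per the labels' processing notes, with the gene and barcode lists beside it. Barcodes are those the authors deposited. Doublets were not called or removed here, and whether they were removed before deposit is not given in the sources used here. Whether intronic reads or strand were used in counting is likewise not given. Counts were summed over all barcodes of a library and divided by its total UMIs to give CPM. Exact Poisson limits were used for sums and exact conditional (Clopper-Pearson) limits for ratios, at 95%. Depth per library was 25836175 to 66767829 UMIs, so that a member with the mean share of UMIs has an interval of a few percent. No test was made, for want of replicates, and past a fold means at least 1.5-fold in CPM.

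Members and lists were chosen with earlier results of these data known. Named members were the 4 highest and 4 lowest in each comparison, those past 1.5-fold, the 6 most abundant, the 3 with the fewest UMIs, 8 of known role, and those sharing exons on the same strand. Mrpl41, Mrps23, Mrps30 and Mrps33 were added after their values had been seen. From the other lists at most 2 at each end were eligible. Positions, exons and overlaps came from GENCODE vM21 (GRCm38), promoters from RefSeq. Alternatives were gene-wise scaling, totals without Gm42418, Malat1 and the 13 mitochondrially encoded genes, barcodes with at least 200 genes, with 20% or less mitochondrially encoded UMIs, or in 1 library only, and no minimum or 500 UMIs per gene. The Malat1 range, the members without exon overlap the deeper background and the count of members under 1.5 times by setting were added after the data had been seen. Python 3.11.15, numpy 2.4.6, scipy 1.17.1, pandas 2.3.3 and matplotlib 3.10.9 were used, and the calculations were tested on simulated data. The authors' clusters and cell names were not used here.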

Additional observations from a re-analysis of the deposited data

Results flagged for a closer look

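Mrps5 stood out because its I/R over sham difference had opposite directions at the 2 ages, past 1.5-fold in each: the log2 ratio was -1.38 in the young and 0.70 in the aged libraries, an aged minus young difference of 2.08. With 1 library per condition the difference was not tested. The share of all genes past 1.5-fold in opposite directions is not given here. Lower in young I/R and higher in aged I/R, at any size, were 46.1% of all genes with total UMIs and 27.7% with gene-wise scaling. Malat1 (-1.72 and 0.59) and Ttn (-0.77 and 0.93), which were counted in the same libraries, were among those with these directions. Whether they bear on Mrps5 was not tested.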

How the results depend on the processing

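Values are given in the order of the injury comparisons (I/R over sham) in young and in aged hearts and the age comparisons (aged over young) in sham and in I/R hearts. Gene-wise scaling gave log2 ratios of the summed level of 0.45, -0.27, 0.13 and -0.59 and medians over the 78 genes of 0.45, -0.15, 0.091 and -0.54. With it 19 members were at least 1.5-fold higher and 1 lower after injury in young hearts, 9 were lower after injury in aged hearts, 0 were higher and 34 lower with age in I/R hearts, and 72 were highest in young I/R. Totals without Gm42418, Malat1 and the 13 mitochondrially encoded genes gave sums of 0.11, -0.26, 0.062 and -0.31, and medians of 0.11 and -0.14 for injury and -0.26 for age in I/R hearts. With them 1 member was higher and 1 lower after injury in young hearts, 7 were lower after injury in aged hearts, 1 was higher and 7 lower with age in I/R hearts, and 41 were highest in young I/R. Barcodes with at least 200 genes gave sums of 0.034 and -0.16 for injury and 0.032 for age in sham hearts, with 3 members lower in the last of these and 26 highest in young I/R. Barcodes with Malat1 at 2 to 5% gave sums of -0.37, -0.080, -0.35 and -0.067 and medians of -0.38 for injury in young hearts and -0.37 for age in sham hearts. In them 13, 1, 15 and 1 members were at least 1.5-fold lower and 2 were highest in young I/R. Without members that share exon sequence the sums were -0.013, -0.21, 0.011 and -0.19. Members whose highest CPM was under 1.5 times the lowest were 71 with total UMIs, 31 with gene-wise scaling and 47 with Malat1 at 2 to 5%. Shares of all genes under the same setting are given above for the gene-wise counts, except the 72, and for the 13 and 15 in the Malat1 range. For the other counts past 1.5-fold or highest in young I/R they are not given here. Those counts are therefore not set against all genes. The cause was not tested, other than that a scaling moves all genes of a comparison alike.

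For the 32 named members, 768 ratios were recomputed under the alternatives that change scaling or barcodes, of which 324 moved beyond counting error and 88 changed sign. The 14 ratios past 1.5-fold, from 7 members, were picked from the same data and gave 84 of these values. Of the 84, 68 stayed past it and none changed sign. Gene-wise scaling and totals without the most abundant genes could not change a sign among them. They move a comparison by at most 0.49, and the limit is 0.585. Limiting mitochondrially encoded UMIs and leaving out shared barcodes moved none of the sums and medians beyond counting error. Neither moved any of the counts by more than 1.5 times. Other UMI minimums could not change these values, since every member had at least 2043 UMIs. No paired analysis was possible because each condition has 1 library, and for the same reason no library was left out. Depth limits the rarest members most, such as Mrps22 with 2043 UMIs over the 4 libraries.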
